A study of Caenorhabditis elegans with 23 samples.

Results

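The arms of autosomes II, III, IV and V of Caenorhabditis elegans were described through transcript levels in windows of 1 kb. Each chromosome was divided into 3 equal parts, and an arm window was one that lay in either outer part and carried neither of the authors' marks headed GRTS and GRH. There were 44761 such windows, of 100257 windows in the table, and 225 arm windows with a mark were left out. Of the 44761 windows, 17270 reached a mean of at least 1 RPKM (reads per kb of window, scaled to the depth of the library) over the 19 libraries used, against 41323 windows in the whole table. All counts and tests below refer to these 17270 windows, and the unmarked middle part of the same chromosomes, with 10209 of 22415 windows at that level, is called the centre.

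Libraries were made from total RNA of whole young adult hermaphrodites after removal of ribosomal RNA. In 5 libraries hrde-1 carried the tm1200 mutation: hrde-1(tm1200) alone, with set-32(ok1457), with set-32(red11), with met-2(n4256) set-25(n5021), and with all of set-32(red11), met-2(n4256) and set-25(n5021). In 9 libraries that mutation had been repaired, written hrde-1(+R), and worms were taken at generations F3 to F8. Of these, 5 were set-32 mutants: set-32(ok1457) at F5 and F8, set-32(red11) at F4 and F5, and the triple mutant of set-32(red11), met-2 and set-25 at F5. The other 4 repaired libraries were set-32(+): hrde-1(+R) at F4 and F5, and hrde-1(+R) in met-2 set-25 mutants at F3 and F5. In the last 5 libraries hrde-1 had never been mutated: set-32(ok1457) and set-32(red11) alone, met-2(n4256) set-25(n5021) alone, set-32(ok1457) with met-2 set-25, and the wild type N2. The alleles of met-2 and set-25 were n4256 and n5021 throughout. Each genotype and generation was 1 library, and strains of other backgrounds served as replicates. Generations of 1 repaired genotype may descend from each other, which the labels do not say. Nothing in the labels says that the libraries came from separate cultures, so p-values measure only the spread between these libraries, which may be technical. Worms of F20, in 4 libraries, were not analysed here.

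On C. elegans autosomes, genes that most tissues use are concentrated in the central region, while the arms are richer in repeats, pseudogenes and recently expanded gene families. Methylation of histone H3 lysine 9, a mark of heterochromatin, is also concentrated on the arms. MET-2 and SET-25 place methyl groups on that residue. SET-32, which also has a SET domain, takes part in setting up heritable silencing, and HRDE-1 is an Argonaute of germline nuclei, guided by small RNAs. The comparisons ask which arm windows change when each of these factors is lost, with and without the repair of hrde-1.

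Arm windows were less often transcribed, and at lower levels, than centre windows. Of the arm windows, 38.6% passed the mean of 1 RPKM, against 45.5% of centre windows. The median level of those that passed was 6.13 RPKM in the arms and 11.2 RPKM in the centres. A level under 5 RPKM was found in 45.0% of arm windows that passed and in 34.3% of such centre windows. Where the annotation could be placed, exons covered 31.3% of the arms and 39.7% of the centres. Windows in which most low values were fractions of a read, called divided-read windows, made up 14.5% of the arms and 8.51% of the centres. Such fractions would arise where a read is shared between copies of a sequence, so a value there cannot be tied to 1 place. In all, 17.1% of arm windows and 13.9% of centre windows were listed at 0 in every library.

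Levels were lower towards the chromosome ends. When each chromosome was cut into 6 bins of equal width from the nearer end to the middle, of which the outer 4 make up the arms, the median level was 5.55, 4.74, 6.28 and 9.05 RPKM in the arm bins, from the end inwards. It was 12.1 and 10.3 RPKM in the central bins. The share of windows that passed ran 38.1%, 35.5%, 38.0% and 42.7% across the arms, and 44.2% and 46.9% in the centre. The bin next to the outermost was thus the lowest in both measures for the chromosomes together, but by itself only III had this pattern. The outermost bin had the lowest share on II and the lowest median on IV. On V the share was lowest in bin 3 from the end, at 24.7%. The border between arm and centre was not itself a step: windows within 100 kb of it had a median of 11.2 RPKM on the arm side (377 windows) and 9.63 RPKM on the centre side (303 windows).

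**Figure D1:**
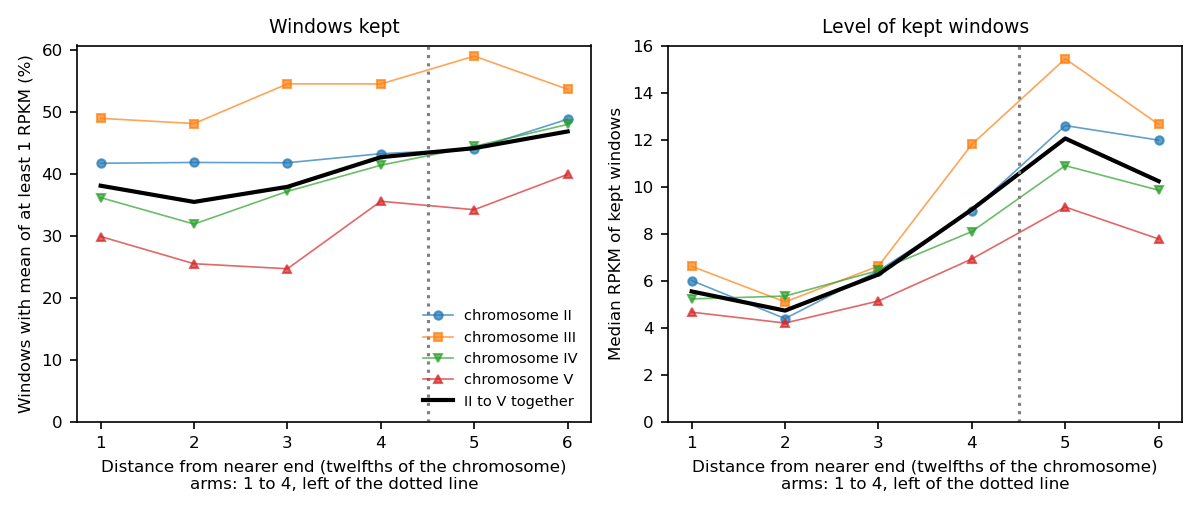
Share of windows that averaged 1 RPKM or more (left, in %) and median RPKM of those windows (right) by distance from the nearer chromosome end, for each of chromosomes II to V and for all 4 together (black). The black line lies between 35.5% and 46.9% on the left and between 4.74 and 12.1 RPKM on the right, lowest in the bin next to the outermost in both.

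The 8 arms differed among themselves. On the right arm of III 54.9% of windows passed, and their median was 7.67 RPKM. On the right arm of V only 28.3% of windows passed, with a median of 4.78 RPKM, and on its left arm 29.6%. The left arm of II had the lowest median level, 4.34 RPKM, beside 7.55 RPKM on its right arm. The left and right arms of a chromosome thus did not share a level on II, and the arms of V held the smallest transcribed share.

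The arm regions of highest mean level were as follows. The window of ckb-2 and srpr-1.2 on III (4369001 to 4370000) stood at 1735 ± 395 RPKM (SD, n = 19). Next came the cuticle collagen genes col-140 on V at 1371 ± 329 RPKM and col-106 on IV at 1107 ± 308 RPKM. The chaperone genes hsp-1 on IV (1106 ± 111 RPKM) and hsp-90 on V (1083 ± 122 RPKM) varied less between libraries than the collagens did, as did rps-23, rpl-3 and ant-1.1, which code for proteins of the small and the large ribosomal subunit and the mitochondrial ADP/ATP carrier. Their means were 967 ± 129, 896 ± 85.3 and 856 ± 89.3 RPKM (SD, n = 19 each). The collagen gene col-20 on II stood at 861 ± 259 RPKM, and an unnamed window on V (20475001 to 20476000), which lies where the annotation could not be placed, at 949 ± 77.6 RPKM.

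Gene families differed in how many of their arm windows passed the mean of 1 RPKM, beside 38.6% of all arm windows. Chemoreceptor genes, which code for membrane receptors mainly of sensory neurons, overlapped 2004 arm windows, and 70 of these, or 3.49%, passed. Of 2310 arm windows on annotated pseudogenes 408 passed, or 17.7%. F-box genes of the fbxa, fbxb and fbxc groups, whose products act as substrate adaptors of ubiquitin ligases, overlapped 571 arm windows, of which 209, or 36.6%, passed with a median of 2.29 RPKM. The centres held 11 windows of that family, of which 3 passed. C-type lectin genes, many of which respond to microbes, had 122 of 411 arm windows past the mean, or 29.7%. Nuclear hormone receptor genes had 195 of 540, or 36.1%, with a median of 2.04 RPKM. Higher shares passed for bath and math genes, with 85 of 166 or 51.2%, and for UDP-glucuronosyltransferase genes, whose products conjugate small molecules to sugars, with 59 of 93 or 63.4%. At the other extreme, 32 of 34 windows of ribosomal protein genes passed with a median of 447 RPKM, 14 of 15 of histone genes with 178 RPKM, and all 19 of heat shock genes with 152 RPKM.

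Arm windows varied slightly more between libraries than centre windows. Among windows that averaged 5 RPKM or more, the median SD of log2(RPKM + 1) over the 19 libraries was 0.50 in 9491 arm windows and 0.43 in 6711 centre windows. It exceeded 1 in 382 arm windows, or 4.02%, and in 217 centre windows, or 3.23%. Arm and centre windows were not matched in level for this. The median of those that averaged 1 RPKM or more was 6.13 RPKM in arms and 11.2 RPKM in centres, and the part of level was not tested. Among the 10 most variable arm regions were set-25, mutated in 7 of the 19 libraries, and the regions described with the comparisons below, and the others were as follows. The arginine kinase gene argk-1 on V (16104001 to 16105000) ranged over 0 to 91.1 RPKM with a median of 17.5. The gene pud-3 on V had 181 and 63.8 RPKM in the repaired met-2 set-25 libraries of F3 and F5, and at most 26.2 RPKM in every other library. An unnamed window on V (4647001 to 4648000) ranged over 0 to 168 RPKM, and Y47D7A.13 on V over 0 to 160 RPKM. Lower in that ranking, below the 10, came the collagen genes col-73 on II, with divided reads, and dpy-13 on IV. Both were at 0 RPKM in set-32(red11) and in the repaired met-2 set-25 library of F3. They were highest in hrde-1(+R) at F4, with 105 and 82.8 RPKM.

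Summed over the 75 cuticle collagen windows that passed, the level ranged over 3913 to 15436 RPKM between libraries. It was lowest in the repaired met-2 set-25 library of F5 and highest in hrde-1(+R) at F4. The 13 windows of major sperm protein genes, near-identical copies whose reads cannot be told apart with certainty, ranged over 23.1 to 633 RPKM. Both extremes came from set-32(ok1457); hrde-1(+R), at F5 and F8. The 32 ribosomal protein windows varied less, over 12320 to 17051 RPKM. Such differences between whole-worm libraries can be a different number of cells of a type or a different level per cell, which cannot be told apart.

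Arm windows held 49.5% to 52.5% of the summed RPKM of arms and centres in the 19 libraries. It was 50.8% to 52.1% in the 5 tm1200 libraries and 49.5% to 52.5% in the 5 never-mutated libraries. In the libraries without repair it was 50.8% to 52.5% in the 4 met-2 set-25 mutants and 49.5% to 51.7% in the 6 libraries wild type for both genes. After repair it was 50.4% to 51.2% in the 3 met-2 set-25 mutants and 50.2% to 52.0% in the other 6. Repaired set-32 mutants had 50.2% to 52.0% and repaired set-32(+) libraries 50.4% to 51.2%. The groups overlapped in each of these comparisons. The widest gap between means was in the libraries without repair, at 51.9% ± 0.74 in met-2 set-25 mutants (SD, n = 4) and 50.8% ± 0.75 in libraries wild type for both (SD, n = 6). Each of those 4 mutants was 0.011 to 2.93 percentage points above the library that matches it in hrde-1 and set-32. The tm1200 libraries differed from the never-mutated libraries of matching genotype by -1.46 to 1.25 percentage points, higher in 1 of 4. A share over the members is a description and was not tested.

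**Figure D2:**
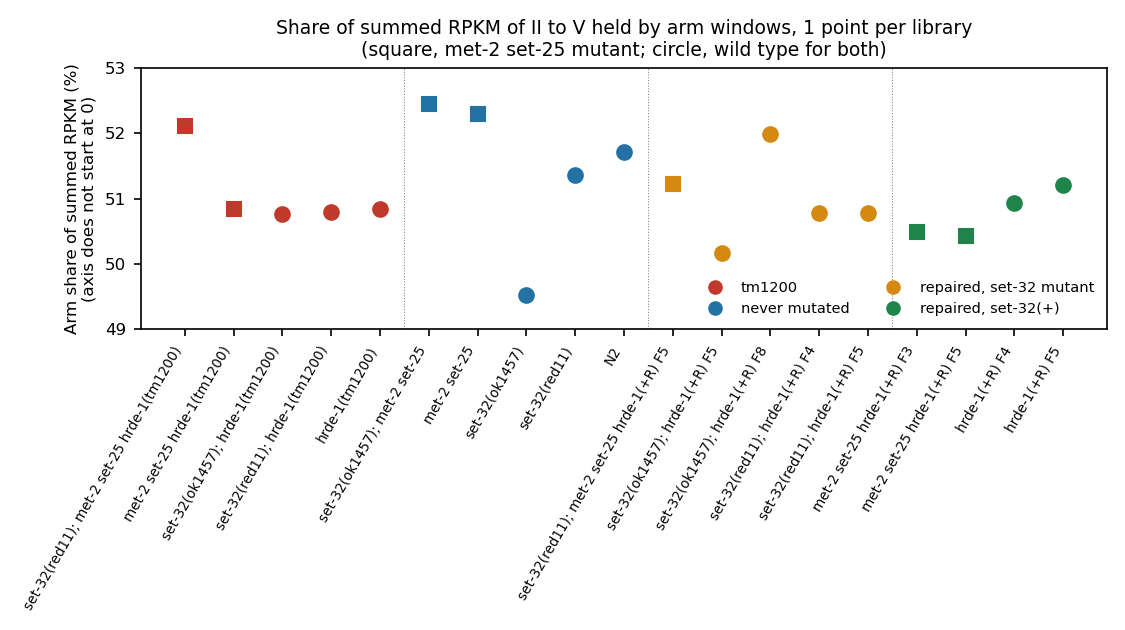
Arm windows' share of the summed RPKM of arm and centre windows of II to V (y axis, in %, not starting at 0), 1 point per library, coloured by hrde-1 and set-32 state, squares for met-2 set-25 mutants. All points lie between 49.5% and 52.5%, and each group overlaps the group it is set against.

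Depth was modest. The values gave 458716 to 1152738 reads per library as the base of the RPKM values, so 1 read was worth 0.867 to 2.18 RPKM and a window at the minimum rests on about 1 read. The tm1200 libraries had 458716 to 924427 reads and the never-mutated ones 697518 to 912845. Repaired set-32 mutants had 842182 to 1152738 reads, and repaired set-32(+) libraries 495050 to 1097226. Marker lists of sperm, oocytes, intestine, muscle and neurons overlapped between the groups of every comparison. Those of the cuticle did so too, except for met-2 set-25 mutants without repair, given with that comparison.

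With hrde-1(tm1200), 59 arm windows were called at the settings used, against 0 to 7 in each other comparison, and 55 of the 59 were rises, many of them at windows with divided reads, without an exon or on pseudogenes. That order depended on the settings: with no filter on low windows 7 were called here, against 55 for met-2 set-25 after repair. At an unadjusted p under 0.05 there were 1026 arm windows here, against 1058 and 1138 for met-2 set-25 without and after repair and 1144 for set-32 after repair. The window of hrde-1 itself lies in the left arm of III (4175001 to 4176000), and it served as the check of the labels. It stood at 58.3, 74.3, 74.1, 87.6 and 61.3 RPKM in the tm1200 libraries, against 202, 206, 136, 283 and 330 RPKM in the never-mutated libraries. The groups did not overlap, and the difference of -1.64 on the log2(RPKM + 1) scale had an adjusted p of 2.35e-05 (limma, Benjamini-Hochberg over all 41323 windows, as for every adjusted p below). In the 9 repaired libraries the window was at 149 to 280 RPKM.

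With hrde-1(tm1200), 55 arm windows were called higher and 4 lower, a call being an adjusted p under 0.05 with a log2 difference of at least 1. Over all windows tested 0.37% were called higher and 0.0242% lower, or 0.394% in either direction. In the arms these shares were 0.318% and 0.0232%. In the centres 6 windows were called higher, or 0.0588%, and 5 lower. The difference between arms and centres was not tested. Of the marked windows, which are no members, 26.0% of 296 were called higher, and these were 77 of the 153 windows called higher in all. The median difference was -0.047 over all arm windows and -0.045 over all windows tested.

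The 55 risen windows formed 37 regions, spread over both sides (29 windows on left arms and 26 on right arms) and over chromosomes II (16 windows), III (4), IV (15) and V (20). Their median level was 12.7 RPKM in tm1200 libraries and 1.1 RPKM in never-mutated libraries. In 39 of them every tm1200 library was above every never-mutated one, which held for 0.871% of all windows tested. Divided reads made up 27 of the 55, against 11.5% of all arm windows that passed. No exon was annotated in 28, against 7.46% of the arm windows that passed and lie where the annotation could be placed. Some of the 28 lie where V could not be placed on the annotation, so the lack of an exon is uncertain there. The share of 7.46% leaves such windows out. Within 2 kb of a marked window lay 22 of the 55, against 212 of the 17270 members, or 1.23%. Without such neighbours, an alternative added after the data were seen, 37 arm windows were called instead of 59. With libraries of matching genotype as blocks (4 against 4), also added afterwards, 36 were. The count of 59 fell to 2 when the met-2 set-25 libraries were left out, and to 31 to 37 on leaving out 1 of 4 single libraries: either tm1200 strain that is also met-2 set-25, the tm1200 strain with set-32(red11) alone, or the never-mutated met-2 set-25 strain.

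**Figure D3:**
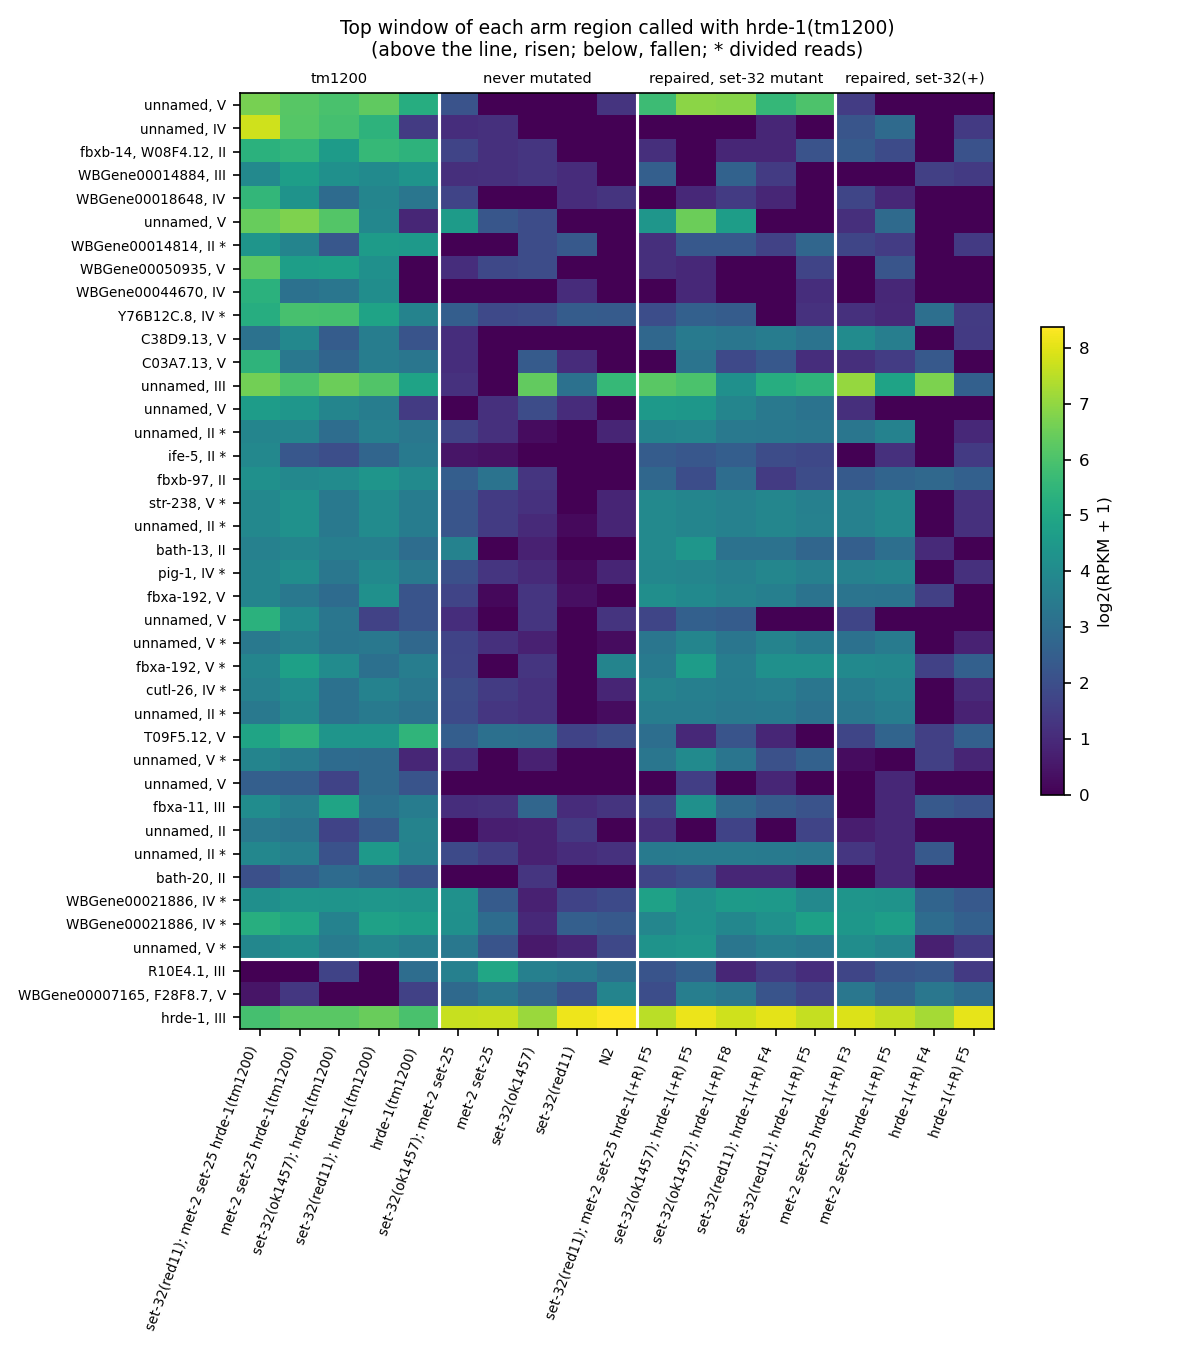
log2(RPKM + 1) of the top window of each arm region called with hrde-1(tm1200), 37 risen and 3 fallen, in the 19 libraries, with regions in order of the size of their change and asterisks for divided reads. Most risen regions are bright in the tm1200 columns and dark in the never-mutated columns, and part of them are bright again in repaired set-32 mutants.

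The largest rise was at an unnamed window of the right arm of V (20299001 to 20300000), in the part of V that could not be placed on the annotation. It stood at 100.0, 72.0, 61.0, 78.4 and 35.9 RPKM in the tm1200 libraries, against 3.46, 0, 0, 0 and 1.42 RPKM in the never-mutated libraries. The difference was 5.38 ± 0.40 (log2, ± SE; adjusted p = 3.12e-09), and it was called in all 21 alternatives. The neighbouring window (20300001 to 20301000) had 6.13 to 24.4 RPKM in tm1200 libraries and was listed at 0 in all 5 never-mutated libraries (adjusted p = 2.33e-05). The third such window (20306001 to 20307000) had 1.75 to 23.6 RPKM in tm1200 libraries and 0 to 2.87 RPKM in never-mutated ones, so these groups overlapped (log2 difference 2.73, adjusted p = 0.0105). All 3 lie within 2 kb of a marked window.

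Second was an unnamed stretch on the left arm of IV (913001 to 915000), with no exon. Its stronger window had 217, 71.2, 58.9 and 41.1 RPKM in 4 tm1200 libraries but 1.75 RPKM in hrde-1(tm1200) alone, against 0 to 1.26 RPKM in the never-mutated libraries. The log2 difference was 4.88 ± 0.53 (adjusted p = 2.05e-06). The highest value came from the strain that also carries set-32(red11) and met-2 set-25, and after repair the 9 libraries had at most 6.38 RPKM.

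Members of the F-box and MATH families rose at 8 windows. Among the names below, fbxa-107, fbxa-192, bath-13, str-238, C38D9.13, C18D4.6, F28F8.7, WBGene00007165, WBGene00050935 and WBGene00044670 are uncertain, as is argk-1 above, since in their segments the levels followed the annotated exons only weakly, with correlations of 0.0325 to 0.136. The largest of these changes was at fbxb-14 on the left arm of II (582001 to 583000), a window that also overlaps W08F4.12. It had 39.4, 44.9, 22.9, 48.1 and 42.0 RPKM in the tm1200 libraries, against 2.30, 1.26, 1.43, 0 and 0 RPKM in the never-mutated ones. The groups were far apart, and the log2 difference was 4.46 ± 0.40 (adjusted p = 8.39e-08). The call held in all 21 alternatives, again including those that did not alter the fit. After repair this window had 0 to 4.17 RPKM in the 9 libraries, whatever the set-32 or met-2 set-25 genotype. Of the other F-box genes, fbxb-97 on II averaged 16.2 ± 2.22 RPKM in tm1200 libraries and 2.84 ± 3.52 RPKM in never-mutated ones (SD, n = 5 each; log2 difference 2.70, adjusted p = 0.00314). Rises of 2.12 to 2.57 were called at fbxa-11 on III, at fbxa-107 on V and at 2 windows of fbxa-192 on V. In all, 6 of the 209 F-box windows rose and none fell, and their median difference was 0.09 beside -0.045 over all windows tested. Of 85 windows of bath and math genes, whose products join substrates to a cullin ubiquitin ligase, 2 rose: bath-20 (2.21, adjusted p = 0.0467) and bath-13 (2.64, adjusted p = 0.0123), both on II. At bath-13 the never-mutated strain with set-32(ok1457) and met-2 set-25 had 12.1 RPKM, within the 7.0 to 13.2 RPKM of the tm1200 libraries.

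Annotated pseudogenes gave 16 of the 55 rises, from 408 pseudogene windows, and the median difference of all 408 was 0.14. At WBGene00014884 on the right arm of III (13162001 to 13163000) the values were 14.2, 24.8, 17.4, 15.1 and 19.3 RPKM in tm1200 libraries, against 1.17, 1.26, 1.43, 1.10 and 0 RPKM in never-mutated libraries. That is a log2 difference of 3.3 ± 0.43 (adjusted p = 3.99e-05), with no overlap. WBGene00018648 on IV (4133001 to 4135000) rose in both of its windows (3.09 and 3.15). Its values were uneven among the mutants: the second window had 45.7 RPKM in the strain that is also set-32(red11) met-2 set-25, and 6.54 to 18.6 RPKM in the other 4, against 0 to 2.30 RPKM in never-mutated libraries. WBGene00014814 on II (10936001 to 10942000) rose in 4 windows, by 2.10 to 3.04, and WBGene00021886 on IV (2904001 to 2913000) in 4 windows with divided reads, by 1.75 to 2.12. WBGene00050935 on V (18120001 to 18123000) rose in 3 windows (2.70 to 3.01) and WBGene00044670 on IV in 1 (2.96), and in each of these 4 windows hrde-1(tm1200) alone was listed at 0 while the other tm1200 libraries had 6.34 to 86.7 RPKM.

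Among the remaining named rises were noncoding RNA genes and windows without exon. The lincRNA gene T09F5.12 on V (15165001 to 15166000) averaged 30.6 ± 11.7 RPKM in tm1200 libraries and 4.87 ± 2.44 RPKM in never-mutated ones (SD, n = 5 each; log2 difference 2.46, adjusted p = 0.000111). The noncoding gene C38D9.13 on V had 3.5 to 13.9 RPKM in tm1200 libraries, against 1.15 RPKM in 1 never-mutated library and 0 in the others (2.82, adjusted p = 0.00356). After repair it stood at 5.94 to 10.4 RPKM in the 5 set-32 mutants, at 15.5 and 10.9 RPKM in met-2 set-25 mutants with set-32(+), and at 0 and 1.66 RPKM in hrde-1(+R) at F4 and F5. Y76B12C.8 on IV (1980001 to 1981000), with divided reads, had 12.3 to 60.4 RPKM in tm1200 libraries and 2.57 to 4.66 RPKM in never-mutated ones (2.91, adjusted p = 2.50e-05). The gene ife-5 on II, which codes for a form of the cap-binding factor eIF4E, rose in a window that holds no exon and has divided reads (2.71, adjusted p = 0.00701). The window of C03A7.13 on V, also without exon, rose by 2.75 (adjusted p = 0.00566). An unnamed window on III (2431001 to 2432000) was called (2.75, adjusted p = 0.0368) although its groups overlapped widely, at 28.0 to 96.3 RPKM in tm1200 and 0 to 81.7 RPKM in never-mutated libraries, and the call was lost in 12 of 21 alternatives.

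With hrde-1(tm1200) 4 windows in 3 regions fell, one of them hrde-1, and in all 4 every tm1200 library was below every never-mutated one, which held for 0.486% of all windows tested. R10E4.1 on III (4270001 to 4272000) fell in both of its windows. The first had 3.15, 4.64, 4.36, 3.25 and 5.25 RPKM in the tm1200 libraries, against 25.3, 66.6, 27.2, 18.6 and 15.6 RPKM in the never-mutated libraries (log2 difference -2.45, adjusted p = 0.00019). It stayed low after the repair: the 9 repaired libraries had 0.97 to 9.11 RPKM, below every never-mutated library. The call of the second window, at 4271001 to 4272000, was lost in 10 of 21 alternatives. Both hrde-1 (4175001 to 4176000) and R10E4.1 lie in the left arm of III. The window shared by F28F8.7 and the pseudogene WBGene00007165 on V (15585001 to 15586000) had 0 to 2.10 RPKM in tm1200 and 3.29 to 12.7 RPKM in never-mutated libraries (-2.27, adjusted p = 0.0225), and this call was lost in 13 of 21 alternatives.

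Of the 55 risen windows, 13 had near-equal values at 7 places on 3 chromosomes, a pattern noticed after the values were seen. Each differed from at least 1 of the others by a mean of less than 15% of the level over the libraries. They lie on II at 1076001 to 1078000, 2267001 to 2268000 and 14688001 to 14691000, on IV at 508001 to 511000 and 702001 to 705000, and on V at 766001 to 769000 and 3325001 to 3326000. The IV stretches overlap pig-1, a kinase gene, and cutl-26, a cuticlin-like gene, and the first V stretch lies at the chemoreceptor gene str-238, whose 2 windows are the only chemoreceptor windows called. All 13 have divided reads and no exon. The first windows of the 7 stretches had means of 6.37 to 8.74 RPKM over the 19 libraries. Windows that share reads repeat one measurement, so the 13 calls cannot be taken as independent observations. Their library medians were 6.96 to 11.9 RPKM in the 5 tm1200 libraries and 0.16 to 2.69 RPKM in the 5 never-mutated ones.

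**Figure D4:**
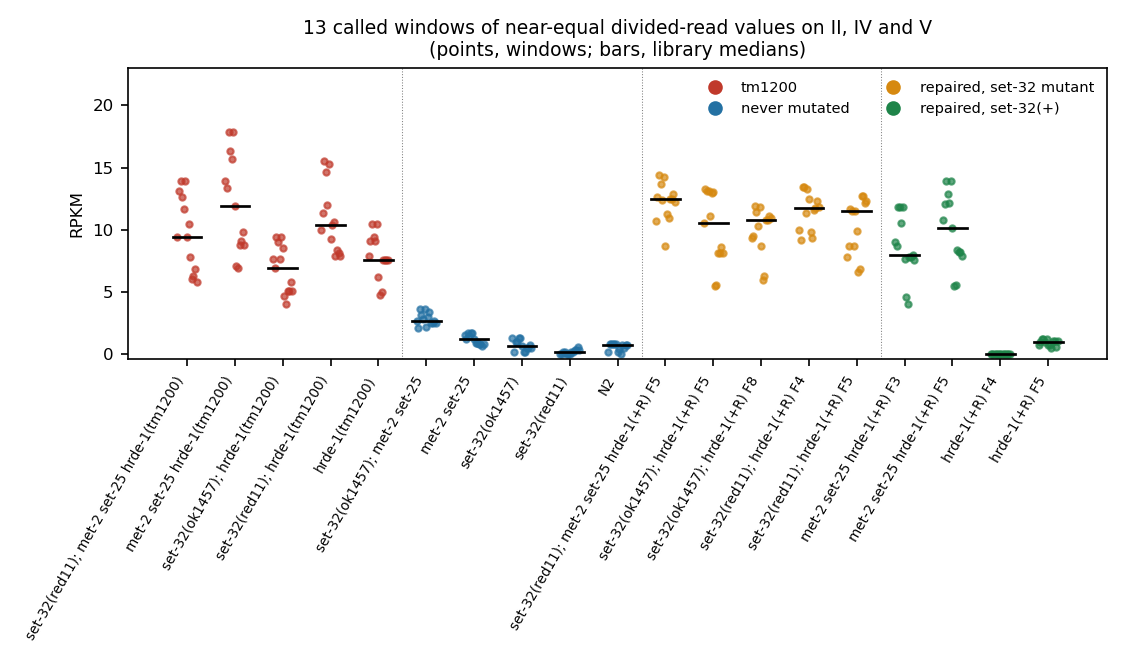
RPKM of the 13 near-equal divided-read windows (points) and their median (bar) in each of the 19 libraries, coloured by hrde-1 and set-32 state. The medians lie at 6.96 to 11.9 RPKM in tm1200 libraries, 0.16 to 2.69 RPKM in never-mutated libraries, 10.6 to 12.5 RPKM in repaired set-32 mutants, 7.97 and 10.2 RPKM in repaired set-32(+) met-2 set-25 libraries, and 0 and 0.99 RPKM in hrde-1(+R) at F4 and F5.

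After repair these copies had different medians in different genotypes. Their medians were 10.6 to 12.5 RPKM in the 5 repaired set-32 mutants and 7.97 and 10.2 RPKM in the 2 repaired set-32(+) met-2 set-25 libraries, but 0 and 0.99 RPKM in hrde-1(+R) at F4 and F5. The hrde-1(+R) libraries may be generations of 1 line and had 495050 and 603779 reads, against at least 840212 in every other repaired library. The parts of genotype, line and depth were not tested. None of the 13 windows was itself called for set-32 or met-2 set-25 after repair. Across all 55 windows that rose, the 5 repaired set-32 mutants lay above every never-mutated library and above both hrde-1(+R) libraries in 21, of which 17 had divided reads. The same held for the 2 repaired set-32(+) met-2 set-25 libraries in 22 windows, 19 of them with divided reads, and for all 3 repaired met-2 set-25 libraries in 18, of which 16 had divided reads. In 14 windows, 1 of them with divided reads, all 9 repaired libraries were below all tm1200 libraries. Among these 14 were fbxb-14, fbxb-97, fbxa-107, T09F5.12 and both windows of WBGene00014884 and of WBGene00018648. The lower never-mutated values and the higher tm1200 values entered the call itself. The matching shares over all windows tested were not taken, so these counts are a description.

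The set-32 comparison after repair had 6 arm windows called higher and none lower, and over all windows tested 0.075% were called higher and 0% lower. In 4 of the 6 every set-32 mutant was above every set-32(+) library, which held for 1.03% of all windows tested. All 6 lie on right arms, and 4 have divided reads. The unnamed V window of the largest hrde-1 change led here too. It had 52.3, 121, 115, 46.8 and 64.0 RPKM in the 5 set-32 mutants, against 1.79, 0, 0 and 0 RPKM in the set-32(+) libraries (log2 difference 5.90 ± 0.41, adjusted p = 2.00e-07). The windows at 20300001 and 20306001 had 4.77 to 23.8 and 8.08 to 21.4 RPKM in the set-32 mutants, against 0 to 0.6 and 0 to 1.19 RPKM in set-32(+) libraries (3.66 and 3.78, adjusted p = 0.00228 and 0.000529). At all 3 windows the repaired set-32 mutants overlapped the tm1200 libraries.

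The other 3 of the 6 windows lay at F28F8.7 and a pseudogene. F28F8.7 on V (15579001 to 15581000) rose in 2 windows with divided reads. The first averaged 46.1 ± 17.5 RPKM in set-32 mutants (SD, n = 5) and 15.9 ± 14.5 RPKM in set-32(+) libraries (SD, n = 4), and the groups overlapped (log2 difference 2.45, adjusted p = 0.00361). The pseudogene WBGene00003067 on III (9505001 to 9506000), with divided reads, had 18.4, 20.9, 24.1, 20.8 and 21.3 RPKM in set-32 mutants, against 2.98, 4.56, 8.08 and 4.97 RPKM in set-32(+) libraries. The difference was 1.77 (adjusted p = 0.0299), and the call was lost in 14 of 20 alternatives. Over all 55 windows that rose with hrde-1(tm1200), the set-32 difference after repair was positive in 46 with a median of 1.15, beside 53% positive and a median of 0.03 over all windows tested. These 2 comparisons share no library, but the filter on low windows used all 19. The 55 windows are not independent: they form 37 regions, 27 have divided reads and 13 had near-equal values. Without repair the set-32 difference was positive in 44 of the 55 with a median of 0.21, beside 44.5% positive and a median of -0.045 over all windows tested, in the same 10 libraries as the hrde-1 comparison. Leaving out the triple mutant of set-32(red11), met-2 and set-25 at F5 raised the count of 6 to 27.

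Without repair, no arm window was called for set-32, in either direction, by limma, and 0% of all windows tested were. At an unadjusted p under 0.05 there were 638 arm windows, or 3.69%. The 5 windows of smallest p were 2 of the collagen gene col-81 on II, and 1 each of col-139 on V, col-129 on IV and tbc-10 on III, a gene of the TBC family of Rab regulators. None of them passed the test. At col-139 (4653001 to 4654000) the 6 set-32 mutants averaged 88.8 ± 57.1 RPKM and the 4 set-32(+) libraries 208 ± 97.9 RPKM (SD), with overlapping groups and an adjusted p of 0.0872. Over all 75 collagen windows the median difference was -0.069, beside -0.045 over all windows tested. The window of tbc-10 was listed at 0 in all 6 set-32 mutants and at 1.55 to 8.49 RPKM in the 4 set-32(+) libraries (adjusted p = 0.722).

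Whether the set-32 difference depended on the repair was tested over all 19 libraries. One arm window was called, the V window at 20299001, and 0.0411% of all windows tested were called higher. Its set-32 difference was 5.43 ± 0.62 larger after repair than without repair (adjusted p = 1.35e-05). It was called in all 31 alternatives in which it was tested.

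Few arm windows were called for the loss of met-2 and set-25. Without repair 6 rose and 1 fell, and over all windows tested 0.0581% were called higher and 0.0121% lower, or 0.0702% in either direction. In 3 of the 6 rises, and in the fall, the groups did not overlap, which held for 0.966% of all windows tested upwards and 0.39% downwards. The fall was set-25 itself, on the right arm of III (13288001 to 13289000). All 4 mutants were listed at 0 there, against 17.4, 35.7, 33.3, 15.8, 30.7 and 41.1 RPKM in the other 6 libraries (adjusted p = 8.51e-08). After repair it was again at 0 in all 3 mutants, against 22.2 to 44.7 RPKM in the other 6 (adjusted p = 3.61e-07).

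The largest rise of that comparison was at C55C3.3 on the left arm of IV (5686001 to 5687000). It had 20.5, 12.4, 12.7 and 10.1 RPKM in the met-2 set-25 mutants, against 2.18, 0, 0, 0, 0 and 1.42 RPKM in the other 6 libraries. The groups did not overlap, and the difference was 3.38 ± 0.54 (log2, ± SE; adjusted p = 0.00643). It was also the only arm window that rose in met-2 set-25 mutants after repair, with 11.9, 11.9 and 18.2 RPKM, against 0 to 1.75 RPKM in the other 6 (3.48, adjusted p = 0.0189). Every one of the 7 libraries of that genotype was thus above every one of the other 12. The matching share over all windows tested was not taken. The call was lost in 6 of 20 alternatives without repair and in 9 of 18 after repair. The difference between the 2 comparisons was not called for this window.

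Of the other rises, clec-169, a C-type lectin gene on IV (1261001 to 1262000), averaged 10.9 ± 2.79 RPKM in the 4 met-2 set-25 mutants and 0.652 ± 1.15 RPKM in the other 6 (SD; log2 difference 2.97, adjusted p = 0.0179). Its call without repair was lost in 9 of 19 alternatives. After repair its values in met-2 set-25 mutants were 16.6, 0 and 3.65 RPKM. F19C7.2 on IV (4600001 to 4601000) averaged 12.9 ± 4.93 RPKM in the mutants and 1.68 ± 1.18 RPKM in the others (2.48, adjusted p = 0.0407), and it lost its call in 14 of 19 alternatives. C18D4.6 and an unnamed window on V (17156001 to 17157000) were called (1.82 and 3.17, adjusted p = 0.0125 and 0.0135) with overlapping groups. Each lost its call in 8 of 20 alternatives. In that unnamed window 3 tm1200 libraries had 69.8 to 106 RPKM and hrde-1(tm1200) alone 0.88 RPKM, so it rose with hrde-1(tm1200) as well (3.06, adjusted p = 0.00195). The collagen gene col-139 rose by 1.08 (adjusted p = 0.0184), at 202 ± 95.0 RPKM in the 4 mutants and 92.7 ± 68.1 RPKM in the other 6 (SD), also with overlap. This call was lost in 11 of 20 alternatives. The summed level of 159 cuticle and hypodermis genes, of which 112 averaged 1 RPKM or more, moved with col-139. It was 16779 to 21443 RPKM in the mutants and 11869 to 16609 RPKM in the other libraries, without overlap. Its part in the result was not tested. Of 75 collagen windows col-139 was the only one called, but 29 had an unadjusted p under 0.05 (limma), beside 5.82% of all windows tested. The median difference of the 75 was 0.45, beside 0.03 over all windows tested. The count of 7 became 1 to 4 on leaving out 1 of 5 single libraries: either tm1200 strain that is also met-2 set-25, hrde-1(tm1200) alone, or either never-mutated strain that is met-2 set-25.

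**Figure D5:**
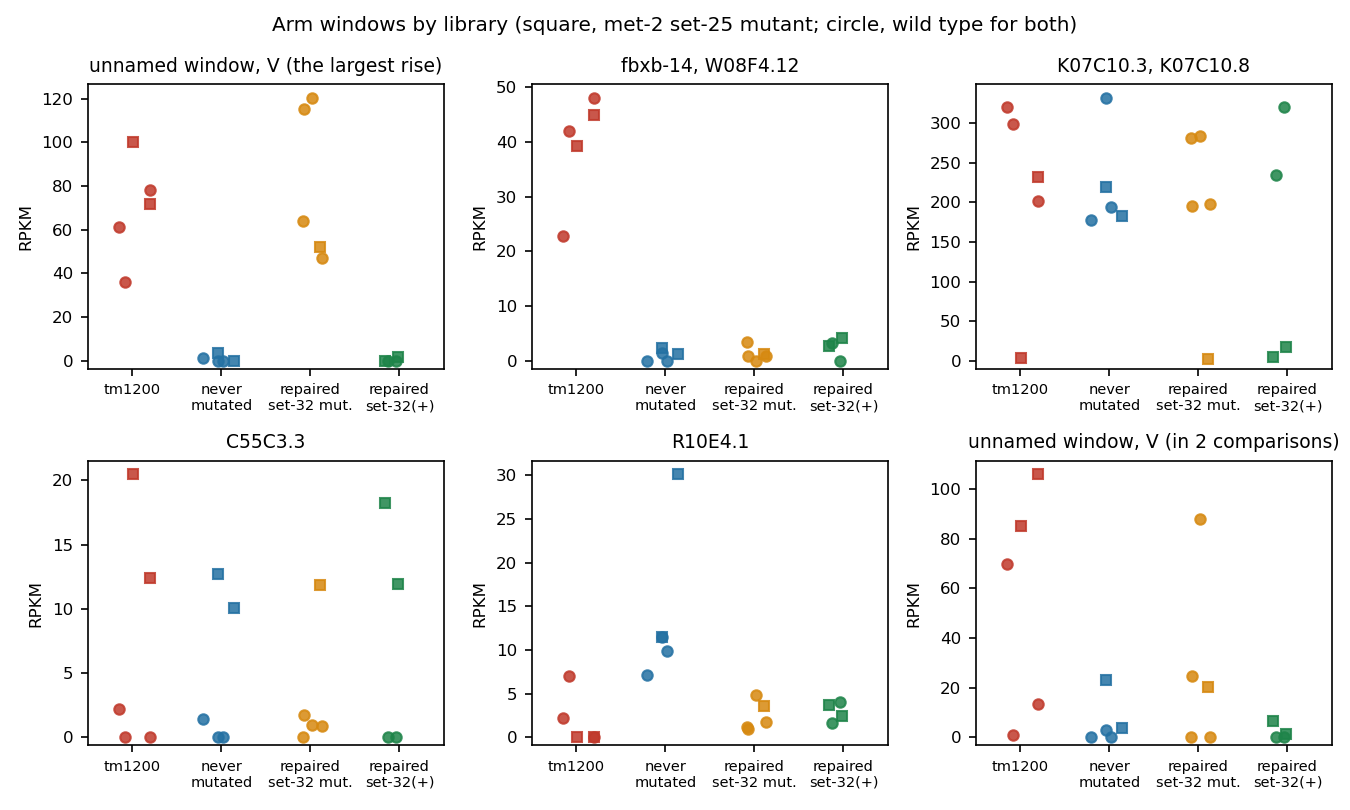
RPKM of 6 arm windows in each of the 19 libraries by hrde-1 and set-32 state, with squares for met-2 set-25 mutants and circles for libraries wild type for both. The largest rise, on V, is high in tm1200 libraries and repaired set-32 mutants, fbxb-14 in tm1200 libraries only, C55C3.3 in squares only, and K07C10.3 is low in 4 squares only.

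After repair 1 arm window rose and 4 fell in met-2 set-25 mutants, and over all windows tested 0.00484% were called higher and 0.0218% lower, or 0.0266% in either direction. In all 5 the groups did not overlap, which held for 1.63% of all windows tested upwards and 0.835% downwards. The largest fall was at the noncoding genes K07C10.3 and K07C10.8 on the right arm of II (11167001 to 11168000). It had 2.37, 16.7 and 4.56 RPKM in the 3 mutants, against 195 to 321 RPKM in the other 6 (log2 difference -5.39 ± 0.33, adjusted p = 5.79e-08). Without repair the same genotype did not share this low level: it was 3.15 RPKM in the tm1200 strain with set-32(red11) and met-2 set-25, but 232, 220 and 183 RPKM in the other 3 met-2 set-25 mutants, beside 178 to 333 RPKM in the 6 libraries wild type for both.

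The gene semo-1 on IV, which codes for a methanethiol oxidase, fell in 2 windows. Its window at 14055001 to 14056000 had 9.50, 4.76 and 3.65 RPKM in the repaired met-2 set-25 mutants, against 13.1 to 50.5 RPKM in the other 6. Without repair the met-2 set-25 mutants had 6.30, 55.7, 20.2 and 38.9 RPKM, with the low value again in the tm1200 strain with set-32(red11), and the other 6 had 16.99 to 29.8 RPKM. After repair the difference was -2.27 in this window and -2.90 in the next, which has divided reads (adjusted p = 0.0453 and 0.0353). The second call was lost in 12 of 17 alternatives. No arm window was called by limma for a difference of the met-2 set-25 effect between repaired and unrepaired libraries, and 0% of all windows tested were. At an unadjusted p under 0.05 there were 1082 arm windows, and the window of semo-1 at 14056001 had the smallest p (difference -3.06, adjusted p = 0.184). The others of smallest p were col-71, ugt-64, ugt-51 and C10G8.8, with adjusted p of 0.442 to 0.496. Leaving out the triple mutant of set-32(red11), met-2 and set-25 at F5 raised the count after repair from 5 to 33 and that of the difference from 0 to 16.

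Among the windows that rose with hrde-1(tm1200), the met-2 set-25 difference was positive in 47 of 55 without repair, with a median of 0.72, and in 43 of 55 after repair, with a median of 0.71. Over all windows tested 52.7% and 54.1% were positive, with medians of 0.03 and 0.04. The comparisons for hrde-1 and for met-2 set-25 without repair come from the same 10 libraries, so they are not independent. The 55 windows are not independent of each other either. One of the 55 windows was called for met-2 set-25 without repair, the unnamed V window at 17156001.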

How the data were processed

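Total RNA of whole young adult hermaphrodites, without poly(A) selection, was sequenced per the labels' protocols. The authors deposited RPKM values for 1 kb windows and, per the submitters' processing notes, used Bowtie 0.12.7. Neither the build of the genome nor how reads with several matches were treated, nor the use of strand, is given in the sources used here, so reads of a gene and an overlapping one cannot be told apart. The table holds 24 columns of other samples, which were not used. Positions count from 1 and follow the table. Gene names come from WBcel235 where they overlap a window by at least 250 bp, in the 199 of 203 segments of 500 windows whose level followed WBcel235 exon density best within a shift of 200 bp. That correlation was weak in some placed segments, down to 0.028 on V, and names there are uncertain. No sequences are printed, since none of the table's build was given.

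From the deposited RPKM values, the windows that averaged 1 RPKM or more were tested on log2(RPKM + 1) with limma 3.58.1 (lmFit, then eBayes with a trend) under R 4.3.3, a scale that understates changes of low windows. Other mutations entered as additive terms. The 10 libraries without repair, the 9 repaired ones and, for interactions, all 19 were fitted separately. P-values were adjusted over all 41323 windows. The fits were also run on simulated data with changes put only into windows of higher level, so that run does not bear on calls at low windows. Only 80.5% to 85.0% of low values were whole reads (within 0.0051 RPKM), so no count test was run. Values over 19 libraries correlated pairwise at 0.796 to 0.913 (171 pairs), and no columns were identical.

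Members, lists and the rule for names were chosen with earlier results of these data known. Called windows of 1 direction at most 1 kb apart formed a region. The text names the 15 top-ranked risen regions and up to 10 fallen ones for hrde-1(tm1200), up to 10 of each direction elsewhere, called members of the family lists, the 5 smallest p where a comparison had no call, and the 10 most abundant and the 10 most variable regions. The collagen genes col-73 and dpy-13, below the 10 most variable regions, are named as well. The 13 near-equal windows and C55C3.3's libraries were singled out after their values were seen. Alternatives were the pseudocount, the filter, scaling by medians, divided-read windows, the trend, chromosomes divided by 4 in place of 3, sets of libraries, single libraries left out and, added after the data were seen, a block of matched genotypes and windows away from marked ones. Division by 4 and leaving out windows near marks change only which windows count as arm windows. The fit of a named window is the same there, so its call could not be lost.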

Additional observations from a re-analysis of the deposited data

Results flagged for a closer look

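One library stood apart from the others of its group in 18 of 116 groups of 4 or 5 values, over the arm share and 28 named windows, by the gap between the extreme library and its neighbour. Chance flags about 1 group in 20, and a group whose other libraries are all at 0 is flagged by 1 read.

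The arm share was 52.1% in the tm1200 strain with set-32(red11) and met-2 set-25, beside 50.8% in each of the other 4 tm1200 libraries. The same library had 42.5 RPKM at C03A7.13 on V, beside 5.45 to 10.82 RPKM in the other 4. Its values were also the highest of all 19 at the unnamed IV window, WBGene00044670 and WBGene00050935.

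Among repaired libraries, the triple mutant of set-32(red11), met-2 and set-25 at F5 had 16.6 RPKM at clec-169 and 11.9 RPKM at C55C3.3, beside at most 3.47 and 1.75 RPKM in the other 4 set-32 mutants, which are wild type for met-2 and set-25. The unnamed V window at 17156001 had 88.0 RPKM in set-32(ok1457) at F5, beside at most 24.5 RPKM. Among repaired set-32(+) libraries, Y76B12C.8 had 7.26 RPKM in hrde-1(+R) at F4, beside 0.95 to 1.75 RPKM. At F5 the met-2 set-25 library had 3.65 RPKM at WBGene00050935 and 0.91 RPKM at WBGene00044670, with the other 3 at 0. At F3 it had 1.79 RPKM at the V window 20299001 and 1.19 RPKM at 20306001, again with the others at 0. The unnamed IV window at 914001 had 0.87 RPKM in set-32(red11) at F4, with the other set-32 mutants at 0.

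Among never-mutated libraries, R10E4.1 had 30.1 RPKM in met-2 set-25, beside 7.08 to 11.5 RPKM. K07C10.3 had 333 RPKM in set-32(ok1457), beside 178 to 220 RPKM, and C03A7.13 had 4.30 RPKM there, beside 0 to 1.15 RPKM. The V window at 17156001 had 23.0 RPKM in set-32(ok1457) with met-2 set-25, beside 0 to 3.77 RPKM, and C38D9.13 had 1.15 RPKM there, with the others at 0. WBGene00014884 was at 0.0 RPKM in N2, beside 1.10 to 1.43 RPKM. WBGene00044670 had 1.10 RPKM in set-32(red11), with the others at 0.

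The V window at 20299001 was the only arm window whose set-32 difference itself differed between repaired and unrepaired libraries, by 5.43 (log2, limma over 19 libraries).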

How the results depend on the processing

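No paired analysis was possible by replicate number, because the labels give none that groups share. Some libraries match in all other mutations, and with the matched genotype as a block, added after the data were seen, 36 arm windows were called for hrde-1(tm1200) instead of 59 (4 libraries against 4), 5 for met-2 set-25 without repair instead of 7 (4 against 4) and 0 for set-32 without repair (6 against 4). Depth limits what low windows show: 1 read was worth 0.867 to 2.18 RPKM. With hrde-1(tm1200), the 59 arm windows called became 12 with a pseudocount of 0.1, 4 with a mean of at least 0.2 RPKM, 33 with at least 5 RPKM, 7 with no filter, 30 without divided-read windows, 2 without the met-2 set-25 libraries and 37 without windows within 2 kb of a marked one. For met-2 set-25 without repair, the 7 became 1, 1 and 2 with the pseudocount of 0.1 and the minimums of 0.2 and 5 RPKM. After repair the 5 became 2, 2 and 2 under the same settings, 55 with no filter, 2 without the trend and 3 with chromosomes divided by 4 instead of 3. For set-32 without repair, the 0 became 1 with no filter, 1 without divided-read windows and 4 with set-32(ok1457) alone. After repair the 6 became 2 with the minimum of 0.2 RPKM, 0 with no filter, 2 without divided-read windows, 3 without the trend, 3 with division by 4, 11 without met-2 set-25 libraries, 2 with either allele alone and 3 away from marked windows. The single call for the set-32 difference became 2 without the trend and 0 away from marked windows. The cause was not tested.

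Leaving out 1 library at a time gave 31 to 55 calls for hrde-1(tm1200), 1 to 9 and 0 to 1 for met-2 set-25 and set-32 without repair, 2 to 33 and 4 to 27 after repair, and 0 to 16 and 1 to 2 for the differences. The 1 for set-32 without repair came without met-2 set-25. The 33, 27 and 16, and the 2 for the set-32 difference, came without the triple mutant of set-32(red11), met-2 and set-25 at F5. The met-2 set-25 difference also gave 1 call without the tm1200 triple mutant and 2 without set-32(ok1457) at F5. The 5 for met-2 set-25 after repair became 2 or 3 without any other repaired library except set-32(ok1457) at F5. The arm share, 51.1% on average, was 31.0% with division by 4, and 50.2% both without divided-read windows and without the 10 highest windows. As a difference of mean log2 between arms and centres it was -0.59, and on that scale the group differences were 0.0048 for hrde-1(tm1200), 0.0042 for set-32 without repair and 0.025 for met-2 set-25 after repair, where the shares had differed by -0.40, -0.25 and -0.26 percentage points. The shares of the other comparisons differed by 1.10 for met-2 set-25 without repair and 0.22 for set-32 after repair. Of the 34 named changes none changed direction, and under the alternatives their values kept the call 276 times and missed the threshold 147 times. These tallies include division by 4 and leaving out windows near marks, which did not alter the fit of a named window. Of the leave-one-out runs they hold only the lowest and highest value per change.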
